A study of Mus musculus with 6 samples.

Results

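Imprinted genes are expressed mainly or only from the copy inherited from 1 parent, and a list of 37 mouse imprinted genes was followed here by matching their symbols in a deposited count table of 43346 genes. All 37 were found, in 38 rows, since the symbol Snrpn labels 2 overlapping rows. RNA had been sequenced from 6 mouse liver tumours that arose after the carcinogen diethylnitrosamine (DEN). Every tumour came from Sulf2-TTR mice, which overexpress SULF2, an extracellular sulfatase that edits heparan sulfate. The tumours were 3 Gli1 WT, with intact Gli1, and 3 Gli1 KO, in which Gli1 was knocked out. They are called WT 1 to WT 3 and KO 1 to KO 3 by the replicate numbers of the labels. GLI1 is a transcription factor through which Hedgehog signals reach their target genes, and the comparison asks what its loss does in liver tumours of SULF2-overexpressing mice. Age, sex, strain, tumour stage, the part of Gli1 removed and whether the tumours are from different animals are not given in the labels. P-values below therefore measure only the spread between these samples, which may be partly technical.

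In most imprinted regions, DNA methylation laid down in the egg or the sperm marks a control element, and this mark sets which parental copies of several neighbouring genes are read. A noncoding RNA is often made from the copy on which the protein genes are silent. Many members of this group promote or restrain fetal growth, are abundant in fetal liver and are turned down after birth, H19, Igf2, Dlk1 and Meg3 among them. Return of such transcripts in liver tumours is called reactivation. No non-tumour or fetal liver is part of this comparison, so a rise over normal liver was not measured and only levels among the 6 tumours are described. The counts do not separate the parental copies, and so say nothing of the number of copies in use.

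Total counts ranged from 75205624 to 132979502 reads per library. Levels below are CPM (counts scaled to a common library total) on library sizes adjusted by edgeR's TMM factors, and deposited RPKM, which divide by gene length, were used only to compare genes with each other. On the first principal component of log2 CPM, which held 42.7% of the variance, WT 3 (80.9) and KO 1 (65.2) lay apart from the other 4 tumours, which spanned -67.9 to -7. Gli1 itself had 10, 20 and 7 reads in WT 1 to WT 3, against 4, 3 and 3 in KO 1 to KO 3. Each KO library was thus below each WT library, at a level of few reads. Sulf2 ranged from 5.33 to 76.4 CPM in the WT tumours and from 2.63 to 164 CPM in the KO tumours, with its highest value in KO 1. Whether that row counts the transgene is not given. Hepatocyte markers (6 of 6 detected) summed to 149600 to 197700 CPM in WT and 139300 to 160600 CPM in KO, and skeletal muscle markers were at 0 reads for 2 or 3 of 3 genes in each library.

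The group was unevenly expressed. Of the 38 rows, 26 (25 members) reached 1 CPM in at least 1 tumour and 17 (16 members) did so in all 6, while 12 members stayed under 1 CPM throughout. Per length, Gnas was the most abundant member in WT 1, WT 2, KO 2 and KO 3, at 22.8 to 27.2 RPKM. In WT 3 and KO 1 its place was taken by H19, at 94.3 and 473 RPKM against 19.5 and 21.9 RPKM for Gnas. H19 reads made up 60.5% of all member reads in KO 1 and 33.2% in WT 3, but 0.249%, 3.04%, 1.85% and 0.47% in WT 1, WT 2, KO 2 and KO 3. The heatmap of all rows shows these 2 columns standing out for a few rows. Copg2, Kcnq1ot1, Tssc4, Gnas, Impact, Ube3a and Cdkn1c differed by less than 2 times between their highest and lowest tumours. Peg3, for which they do not stand out, differed by 24.3 times.

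**Figure D1:**
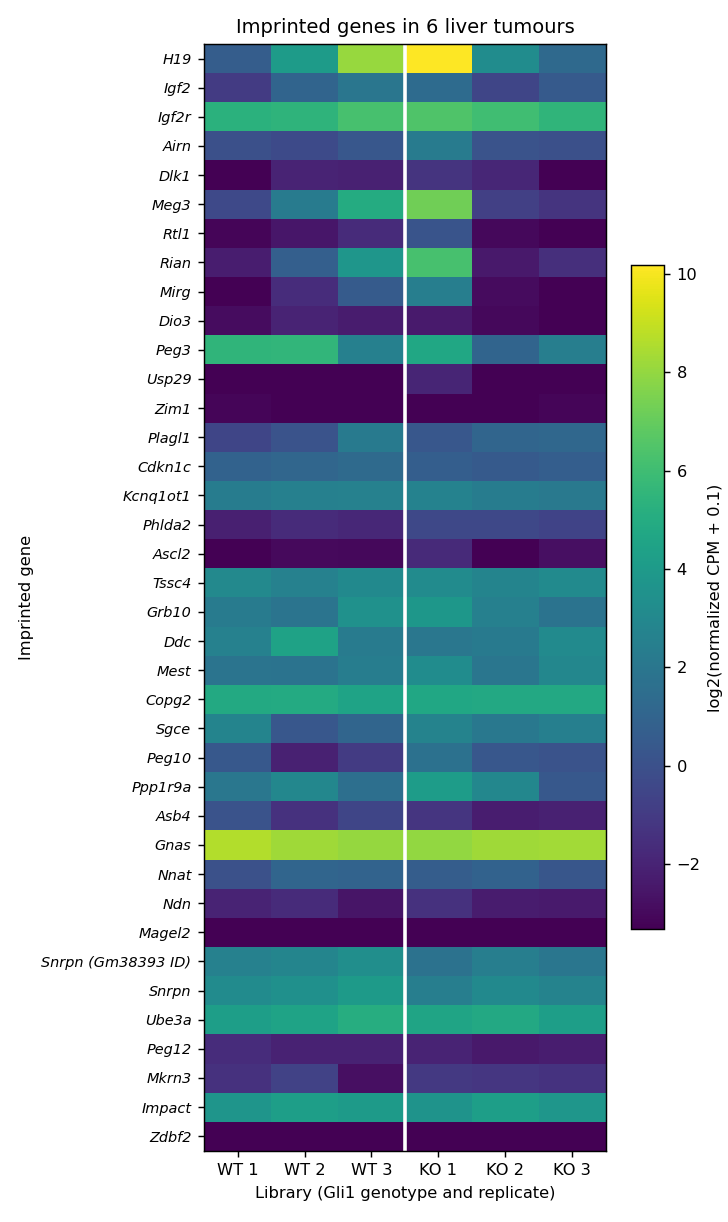
Heatmap of log2(CPM + 0.1) for the 38 rows of the 37 imprinted genes (vertical axis, ordered by imprinted region) in each of the 6 tumours (horizontal axis, with a white line between Gli1 WT and Gli1 KO). H19, Meg3 and Rian are brightest in KO 1 and next brightest in WT 3, while Gnas, Copg2 and Igf2r are bright in all 6 columns.

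The pattern that set tumours apart was shared by 2 imprinted regions on different chromosomes and did not follow genotype. A library is said to stand apart for a gene when its CPM was at least 4 times the median of the 6 libraries. KO 1 stood apart for 6 of the 26 rows at 1 CPM (H19, Meg3, Rian, Mirg, Rtl1 and Airn), against 1.49% of the 15021 genes at that level in the table. WT 3 stood apart for 5 of them (H19, Meg3, Rian, Mirg and Rtl1), against 2.09% of all such genes. The same 5 rows stood apart in both tumours, which 0.679% of all such genes did. Rtl1 and Mirg, however, reached 1 CPM only through KO 1 or WT 3, so these libraries themselves admitted them to the counts.

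Counts were therefore repeated, after the values were seen, over the 24 member rows and 14504 genes that reached 1 CPM in WT 1, WT 2, KO 2 or KO 3. KO 1 then stood apart for 4 rows (H19, Meg3, Rian and Airn), against 0.738% of those genes, and WT 3 for 3 rows (H19, Meg3 and Rian), against 1.01%. The same 3 rows, 12.5% of the 24, stood apart in both, against 0.352% of those genes. KO 1 was highest and WT 3 next for 9 of the 26 rows, against 6.55% of the 15021 genes. Of the 24 rows this held for 7 (H19, Meg3, Rian, Igf2r, Airn, Kcnq1ot1 and Grb10), or 29.2%, against 5.97% of the 14504 genes. Meg3 and Rian lie in the same region and Igf2r and Airn overlap, so the rows counted are not independent of each other.

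H19, a maternally expressed noncoding RNA abundant in fetal liver, had the widest range of levels in absolute terms. It is a lincRNA gene on the minus strand at chr7:142575529-142578143 (coordinates as deposited, read as mouse GRCm38). Its CPM were 1.49, 17.2 and 273 in WT 1 to WT 3, and 1152, 9.52 and 2.31 in KO 1 to KO 3. One tumour of each genotype was high, and the remaining 4 lay between 1.49 and 17.2 CPM. The highest level was 773 times the lowest, with 121234 reads behind the first and 119 behind the second. By deposited RPKM, H19 ranked 77 among all genes in KO 1 and 353 in WT 3, against 4487 to 13154 in the other tumours. The mean was 97.2 ± 153 CPM in WT and 388 ± 662 CPM in KO (SD, n = 3 each), so the SD exceeded the mean in both genotypes. The log2 fold change of KO over WT was 2.00 ± 2.38 (SE), with an edgeR FDR of 1.0. Without KO 1 it was -4.03, without WT 3 it was 5.38 and without both it was -0.65, so 1 library decided its sign.

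H19 also carries the hairpin of miR-675 in its transcribed sequence. Its mature miRNAs are shown because that hairpin was counted in a row of its own, with the seed (bases 2 to 8) in capitals, from RefSeq on GRCm38.p6, minus strand:
miR-675-5p, chr7:142577112-142577133: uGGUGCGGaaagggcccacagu
miR-675-3p, chr7:142577078-142577099: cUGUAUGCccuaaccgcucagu
The 2 arms have different seeds. The table row of the hairpin, Mir675, had 0.0626, 1.65 and 24.5 CPM in WT 1 to WT 3 and 99.7, 0.745 and 0.277 CPM in KO 1 to KO 3, high in the same 2 tumours as H19. Long-RNA libraries count fragments of the H19 transcript here, not the mature miRNA, which was not measured.

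Igf2, the paternally expressed fetal growth factor gene that shares an enhancer and a control element with H19, did not share its range. It starts at -88.7 kb from the H19 start and had 0.413, 1.97 and 3.81 CPM in WT 1 to WT 3 and 2.56, 0.609 and 1.30 CPM in KO 1 to KO 3. WT 3 and KO 1 were again the 2 highest, but at 2.33 and 1.56 times the median of the 6 tumours, where H19 was at 20.5 and 86.4 times. Per length, H19 exceeded Igf2 in each tumour, by 4.27 times in KO 3 and by 1090 times in KO 1. The genotype difference of Igf2 was -0.47 ± 0.84 log2 (FDR 1.0), and 0.32 without WT 3. In the window of 1000 kb to either side of the H19 start, 23 of 76 rows reached 1 CPM. KO 1 stood apart for H19 and for 3 small rows nested in it (Gm27786, Mir675 and Gm27483), which share its reads or sequence and are not separate evidence. Mrpl23, a mitochondrial ribosomal protein gene 45.3 kb downstream, ranged only from 6.73 to 8.84 CPM.

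The second region, Dlk1-Dio3, is read from the maternal copy as a string of noncoding RNAs, Meg3, Rian and Mirg, that host snoRNAs and miRNAs, and from the paternal copy as the protein genes Dlk1, Rtl1 and Dio3. Meg3 (lincRNA, plus strand, chr12:109541001-109571726) had 0.676, 4.81 and 31.5 CPM in WT 1 to WT 3 and 152, 0.489 and 0.302 CPM in KO 1 to KO 3. KO 1 had 15956 reads and WT 3 had 2800, and the other 4 tumours had 25 to 364. Rian (processed transcript, plus strand, chr12:109603940-109661716), a host of box C/D snoRNAs, had 0.113, 1.60 and 13.5 CPM in WT and 74.8, 0.0903 and 0.253 CPM in KO. Mirg (lincRNA, plus strand, chr12:109729764-109749460), a host of miRNAs, had 0, 0.225 and 1.38 CPM in WT and 5.26, 0.0301 and 0 CPM in KO. All 3 RNAs thus had KO 1 highest, WT 3 next and then WT 2, with the other 3 tumours under 1 CPM. The ranking of the tumours for H19 began with the same 3. Relative to the median of the 6 tumours, Meg3 was 55.3 times higher in KO 1 and 11.5 times in WT 3, Rian 80.7 and 14.5 times, and Mirg 41.3 and 10.9 times.

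The 2 genotypes overlapped for each of these RNAs. Log2 fold changes were 2.04 ± 2.26 for Meg3, 2.31 ± 2.38 for Rian and 1.71 ± 2.25 for Mirg, each with an edgeR FDR of 1.0. Leaving out KO 1 turned them to -4.93, -4.88 and -4.86, and leaving out WT 3 raised them to 4.21, 4.87 and 3.97. Without both libraries Meg3 was at -2.77 and Rian at -2.33. Meg3 had an unadjusted edgeR p of 0.397 with all libraries, 0.0289 without KO 1 and 0.0429 without both. Leaving out KO 1 removes the high KO tumour, so the smaller p-values are no support for a genotype effect. Without both libraries, Mirg had too few reads to be tested.

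The protein genes of the region stayed near the floor. Rtl1, a retrotransposon-derived gene needed in the placenta, had 1, 6 and 19 reads in WT 1 to WT 3 and 111, 3 and 0 in KO 1 to KO 3. It reached 1.05 CPM in KO 1, and was too low to be tested. Transcripts antisense to Rtl1 host miRNAs, and the strand setting of the counts is not stated, so reads from the 2 strands cannot be told apart. Dlk1, a non-canonical Notch ligand gene of fetal tissues, had 0, 12 and 12 reads in WT and 33, 23 and 0 in KO. At 33 reads in KO 1 against 15956 for Meg3, it showed no range like that of the noncoding RNAs. Dio3, which inactivates thyroid hormone, had 0 to 12 reads per tumour.

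The rows that stood apart were neighbours. Within 1000 kb of the Meg3 start, 16 of 115 rows reached 1 CPM, and KO 1 stood apart for 7 of them, all between the Meg3 start and 188.8 kb downstream. The 7 were Meg3, Rtl1, Rian, Mirg and 3 rows that lie inside or beside them (Mir1906-1, Gm26906 and Gm24895). Of the 7, Meg3 and Rian also reached 1 CPM in a tumour other than KO 1 and WT 3, and the other 5 were admitted by those libraries alone. None of the 9 rows further out stood apart in KO 1. Those were Evl, Degs2, Yy1, Slc25a29, Slc25a47, Wars and Wdr25, at -986.3 to -646.7 kb from the Meg3 start, and Dio3os and Ppp2r5c on the other side, at 734.4 and 944.7 kb. Yy1, a general transcription factor gene, ranged from 24.8 to 38.4 CPM, and Ppp2r5c, a phosphatase subunit gene, from 32.1 to 40.6 CPM. Dio3os, the RNA antisense to Dio3, peaked in WT 2 at 1.96 CPM.

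**Figure D2:**
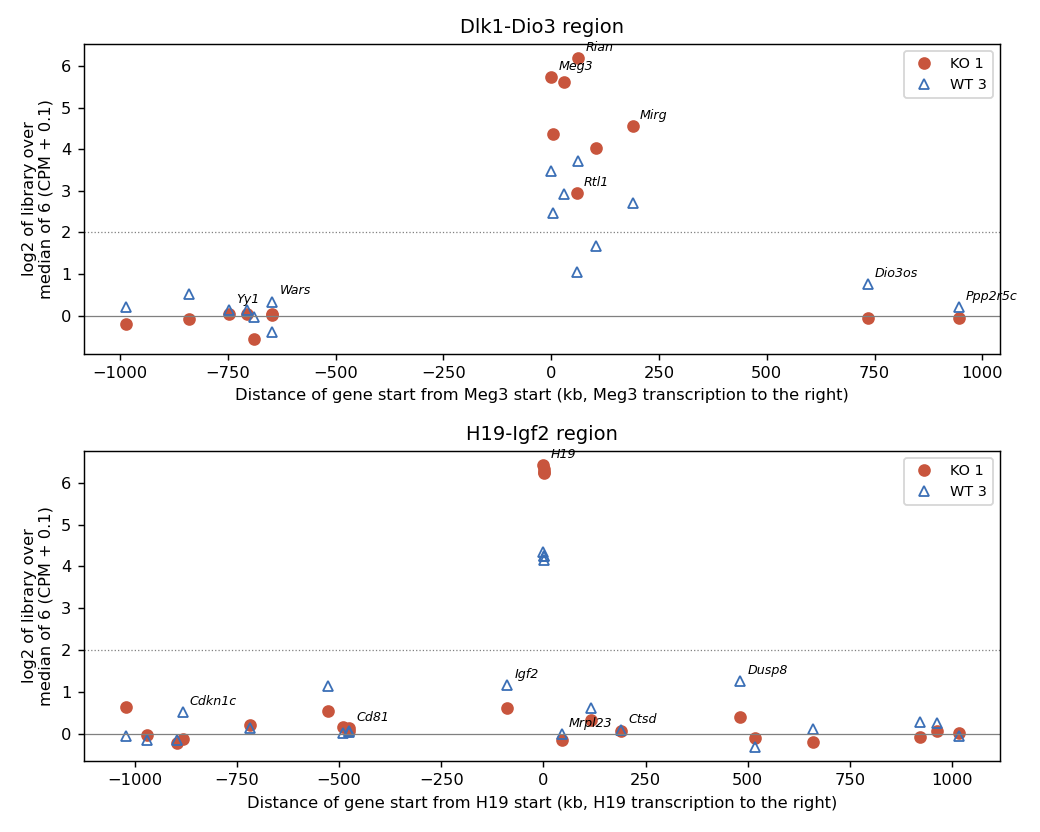
Level in KO 1 (filled circles) and WT 3 (open triangles) as log2 of CPM + 0.1 over the same value for the median of the 6 tumours, against the distance of each gene's start from the Meg3 start (upper panel) or the H19 start (lower panel) in kb. Only rows at 1 CPM or more in a tumour are drawn, and the dotted line marks 4 times the median. Circles rise to 6.19 for Rian and 6.42 for H19, and lie below the dotted line at every gene outside the Meg3 to Mirg interval and outside H19.

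The start regions of Meg3, Rian and Mirg are printed because these transcripts were high in the same tumours. Each window of 300 bases lies around a RefSeq transcript start on GRCm38.p6, plus strand, and is mostly upstream of it. Capitals mark matches on either strand to TATAAA, the letters of the TATA box, to CCAAT, to the letters of the GC box, GGGCGG, and to TGCCGC, the core of the site bound by the imprint-keeping protein ZFP57:
Meg3, chr12:109540746-109541045: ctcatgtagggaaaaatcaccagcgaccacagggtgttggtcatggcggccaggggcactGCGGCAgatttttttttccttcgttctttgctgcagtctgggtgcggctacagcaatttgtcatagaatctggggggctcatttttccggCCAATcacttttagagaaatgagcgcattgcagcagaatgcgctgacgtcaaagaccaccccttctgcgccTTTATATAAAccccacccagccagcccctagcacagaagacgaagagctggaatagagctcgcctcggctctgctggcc
Rian, chr12:109603695-109603994: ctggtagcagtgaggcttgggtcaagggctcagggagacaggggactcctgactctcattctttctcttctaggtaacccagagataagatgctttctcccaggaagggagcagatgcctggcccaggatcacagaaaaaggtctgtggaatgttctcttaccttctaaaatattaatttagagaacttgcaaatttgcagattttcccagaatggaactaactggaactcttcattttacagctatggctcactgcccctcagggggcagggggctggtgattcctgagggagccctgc
Mirg, chr12:109734731-109735030: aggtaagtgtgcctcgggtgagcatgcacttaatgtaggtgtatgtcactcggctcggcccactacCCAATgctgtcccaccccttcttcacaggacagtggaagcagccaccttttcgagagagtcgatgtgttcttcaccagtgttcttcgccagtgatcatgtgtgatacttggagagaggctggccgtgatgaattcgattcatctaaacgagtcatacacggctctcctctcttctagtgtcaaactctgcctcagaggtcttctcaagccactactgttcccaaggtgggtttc
The Meg3 window printed held 13 CpG dinucleotides, 2 overlapping TATAAA matches on opposite strands, 1 CCAAT and 1 TGCCGC. Another RefSeq window of Meg3, chr12:109545148-109545447, is not printed and held 1 CpG and none of the motifs. The Rian window held 0 CpG and none of the motifs, and the Mirg window, which lies inside the deposited Mirg row rather than at its start, held 10 CpG and 1 CCAAT. Over all 32851 RefSeq windows, 13.6% held TATAAA, 37.4% CCAAT, 35.7% GGGCGG and 11.6% TGCCGC. RefSeq windows were found for 31 members, 48 windows in all, of which 10 held TATAAA, 16 CCAAT, 22 GGGCGG and 11 TGCCGC. The GLI consensus GACCACCCA was in 0 of the 48 and in 0.253% of all windows. The median window had 13.5 CpG for members and 7 for all genes. A match describes letters only, and binding and methylation were not measured. Mature miRNAs lie on the Meg3 strand in Meg3 (3), Rian (6) and Mirg (26, with 25 seeds), and opposite Rtl1 (11), and were not measured either.

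Other transcripts also had their highest levels in the same 2 tumours. Afp, the fetal serum protein used as a liver tumour marker, had 5.20, 5.22 and 52.8 CPM in WT 1 to WT 3 and 274, 23.6 and 13.3 CPM in KO 1 to KO 3. Gpc3, an oncofetal heparan sulfate proteoglycan gene, had 1.93, 8.56 and 134 CPM in WT and 246, 14.0 and 0.796 CPM in KO. For Gpc3, WT 3 and KO 1 stood apart, at 11.9 and 21.8 times the median. For Afp, KO 1 stood apart at 14.9 times the median, but WT 3, at 2.87 times, did not. Markers of cholangiocytes or progenitors summed to 9.99 to 23.1 CPM in WT and 6.59 to 20.4 CPM in KO, and for 4 of the 4 that reached 1 CPM WT 3 and KO 1 were the 2 highest. Krt19 and Krt7, however, reached 1 CPM only in WT 3 and KO 1, so these libraries themselves admitted them. Epcam and Sox9 also reached it in another tumour. The fifth marker, Cldn4, had 0 reads in KO 3. Stellate cell or fibroblast markers summed to 116 to 277 CPM in WT and 253 to 451 CPM in KO, with WT 3 and KO 1 as the 2 highest for 2 of 8 and no marker at 0 reads. Among markers at 1 CPM, WT 3 and KO 1 were also the 2 highest for 2 of 6 endothelial and 1 of 6 leukocyte markers. They were so for 0 of the hepatocyte, neutrophil, pancreatic acinar and proliferation markers. The share of all genes for which these 2 tumours were highest was not counted. The part of any of these cell types in the H19 and Meg3 levels was not tested. In bulk tumours, fewer cells of a type and less RNA per cell cannot be told apart.

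**Figure D3:**
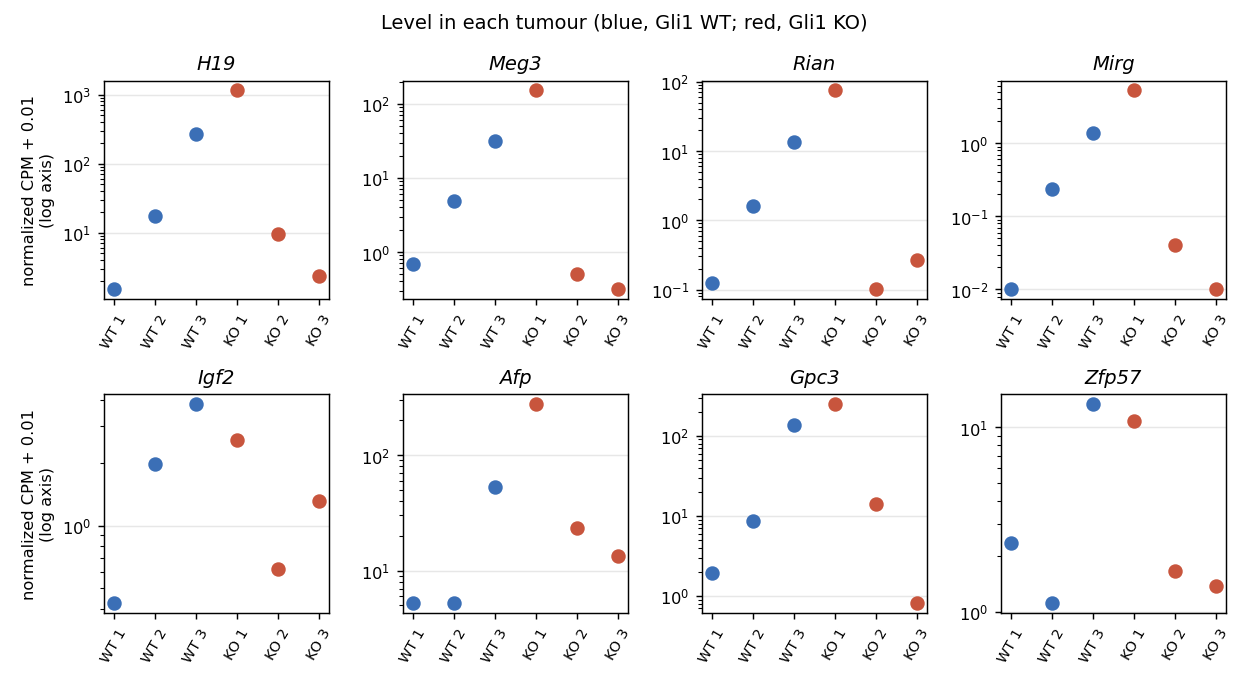
CPM + 0.01 on log axes, each with its own range, for 5 imprinted genes (H19, Meg3, Rian, Mirg, Igf2), the liver tumour markers Afp and Gpc3 and the imprint-keeping factor Zfp57 in each tumour (blue, Gli1 WT; red, Gli1 KO). WT 3 and KO 1 are the 2 highest points in all 8 panels, although Igf2 spans only 0.413 to 3.81 CPM.

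Igf2r and Airn form an antisense pair. Igf2r (minus strand, chr17:12682406-12769664) encodes a maternally expressed receptor that clears IGF2, and Airn (plus strand, chr17:12741311-12860122) is the paternally expressed RNA that silences it in cis in the embryo. Igf2r had 39.0, 43.0 and 77.1 CPM in WT 1 to WT 3 and 86.6, 66.5 and 45.3 CPM in KO 1 to KO 3. Its genotype difference was 0.32 ± 0.35 log2 (FDR 1.0), and the groups overlapped. Airn had 0.889, 0.727 and 1.16 CPM in WT and 4.79, 1.01 and 0.881 CPM in KO, so KO 1 alone stood apart, at 5.05 times the median. Airn's difference was 1.27 ± 0.71 log2 (FDR 1.0), and 0.04 without KO 1. Per length, Igf2r exceeded Airn by 16.6 to 25.3 times in the other 5 tumours and by 6.87 times in KO 1. The pair overlaps, so reads of either strand in the shared interval cannot be told apart. The Airn start region is shown for its TATAAA and GGGCGG matches (capitals), with 3 CpG in 300 bases, RefSeq on GRCm38.p6, plus strand:
Airn, chr17:12741061-12741360: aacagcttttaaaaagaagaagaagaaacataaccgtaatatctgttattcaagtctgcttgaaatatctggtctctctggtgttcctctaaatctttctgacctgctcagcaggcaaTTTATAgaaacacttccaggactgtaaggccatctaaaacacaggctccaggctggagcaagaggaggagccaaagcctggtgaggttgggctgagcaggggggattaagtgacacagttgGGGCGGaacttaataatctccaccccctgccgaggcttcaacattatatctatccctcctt

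Compared across genotypes, no member passed edgeR's adjustment. Of the 31 rows tested (30 members), 0 had an FDR under 0.05, and over all 18359 genes tested the share was 0.0%. Unadjusted p was under 0.05 for 4 rows (Phlda2, both Snrpn rows and Asb4), against 3.62% of all genes, and the count was 2 without WT 3 or without KO 3. DESeq2, run as an alternative, called 1 member at an adjusted p under 0.05 (Phlda2). It called 0.345% of the 18237 genes to which it gave an adjusted p. Some members, H19, Meg3 and Mirg among them, got no p-value from DESeq2, so it says nothing about them. Log2 fold changes were positive for 17 rows and negative for 14, with a median of 0.15 beside -0.01 for all genes. That median was -0.15 without KO 1 and -0.19 without KO 1 and WT 3. The 3 KO values lay above the 3 WT values for 1 row (Phlda2), as for 4.15% of all genes, and below them for 3 rows (Cdkn1c and both Snrpn rows), as for 3.96%. Fewer libraries gave more rows without overlap, with 7 without WT 1 and 9 without WT 3 or without KO 1. The share over all genes was not counted for these drops, so the larger counts say nothing about the members. The 7 members too low to test were Rtl1, Dio3, Usp29, Zim1, Ascl2, Magel2 and Zdbf2.

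**Figure D4:**
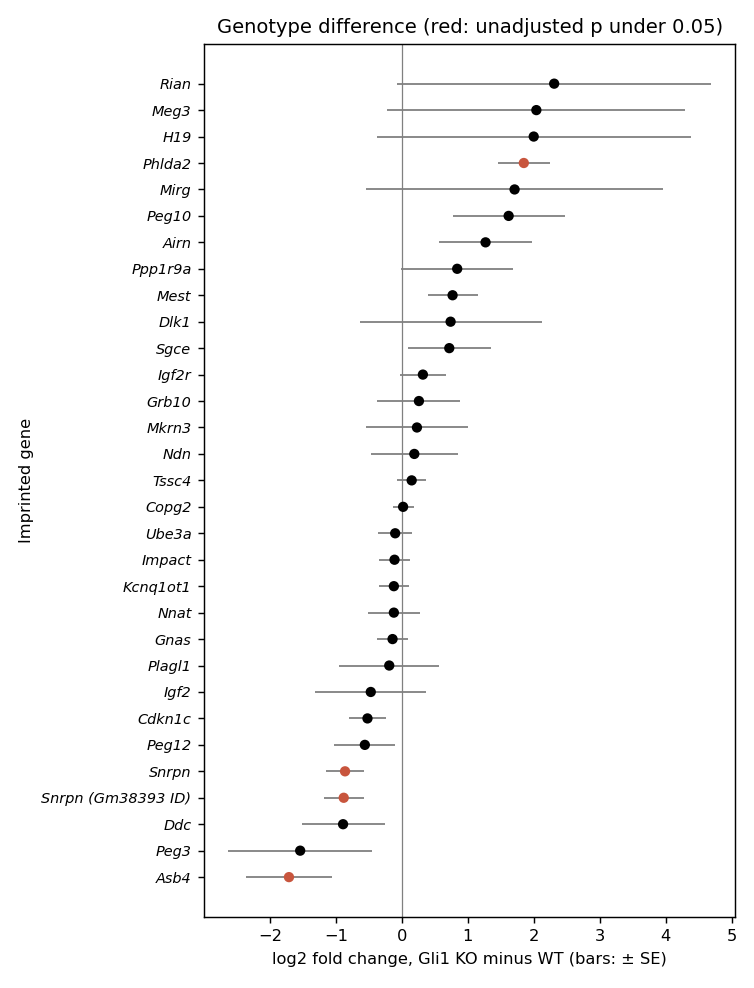
Log2 fold change of Gli1 KO over Gli1 WT (horizontal axis) with bars of ± SE for the 31 rows tested, ordered by size. Red points have an unadjusted edgeR p under 0.05 and no row passes adjustment. Bars are longest for Rian, H19, Meg3 and Mirg, whose values are set by WT 3 and KO 1.

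The Kcnq1 region on chromosome 7 held the 1 tested member whose KO values all lay above its WT values. Phlda2 (minus strand, chr7:143501545-143502541) is a maternally expressed gene that restrains placental growth. It had 10, 16 and 16 reads in WT 1 to WT 3 and 68, 87 and 47 in KO 1 to KO 3. As CPM these were 0.125, 0.211 and 0.180 against 0.646, 0.655 and 0.567, all under 1 CPM and without overlap. The means were 0.172 ± 0.0436 CPM in WT and 0.623 ± 0.0482 CPM in KO (SD, n = 3 each). Its log2 fold change was 1.85 ± 0.39, with an unadjusted edgeR p of 0.00223 and an FDR of 1.0, and a DESeq2 adjusted p of 0.0257. It lay between 1.67 and 2.02 when any 1 library was left out and was 1.86 without WT 3 and KO 1.

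Cdkn1c, the maternally expressed cell cycle inhibitor p57 of the same region, had 1.78, 2.06 and 2.43 CPM in WT and 1.52, 1.30 and 1.56 CPM in KO. The groups did not overlap, by a margin of 1.78 to 1.56 CPM, and the difference of -0.52 ± 0.28 log2 had an unadjusted edgeR p of 0.109. Kcnq1ot1, the paternally expressed noncoding RNA that silences this region, was nearly level at 4.24 to 6.19 CPM, and its reads cannot be told apart from those of the overlapping Kcnq1 gene. Tssc4, also maternally expressed, ranged from 6.01 to 9.11 CPM. Ascl2, a trophoblast transcription factor gene, had 21 reads in KO 1 and 0 to 4 elsewhere. Phlda2 and Cdkn1c, both maternally expressed and neighbours in this region, thus had values that differed in opposite directions, and neither passed edgeR's adjustment.

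The 2 Snrpn rows lie in the region of Prader-Willi and Angelman syndromes and overlap each other on the minus strand of chromosome 7. Snrpn encodes a spliceosomal protein and is paternally expressed. The row that carries Snrpn's identifier (chr7:59982495-60140219) had 9.03, 11.0 and 16.2 CPM in WT and 5.33, 8.22 and 6.35 CPM in KO. The row whose identifier belongs to a read-through model (Gm38393, chr7:59974149-60005064) had 5.92, 6.94 and 10.03 CPM in WT and 3.31, 5.28 and 3.87 CPM in KO. All KO values were below all WT values in both, but since the rows can share reads they count as 1 gene. The differences were -0.86 ± 0.29 and -0.88 ± 0.30 log2, with unadjusted edgeR p of 0.0204 and 0.0221 and FDR of 1.0. The first was -0.59 without WT 3 (unadjusted p 0.0552) and -0.45 without WT 3 and KO 1 (unadjusted p 0.126). Its neighbour Ube3a, a ubiquitin ligase gene imprinted in neurons, ranged from 18.6 to 33.2 CPM with a difference of -0.10 ± 0.26 (FDR 1.0). Ndn, Mkrn3 and Peg12, paternally expressed genes of this region, stayed between 4 and 46 reads per tumour. Magel2 had 0 reads in every library, which allows up to 0.0226 to 0.0396 CPM at a floor of 3 counts.

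**Figure D5:**
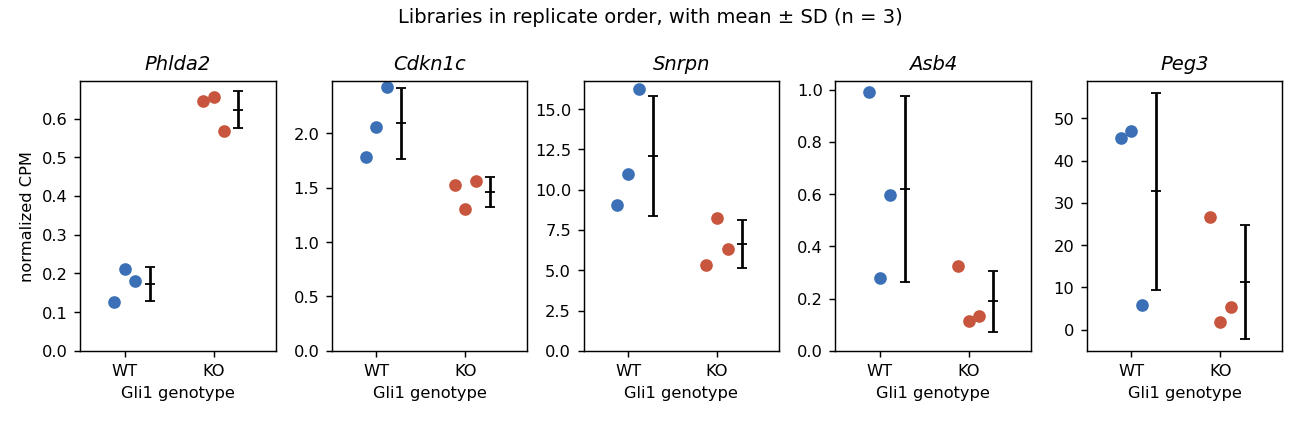
CPM in each tumour (points, in replicate order from left to right) with the mean ± SD of 3 tumours per genotype (bars) for Phlda2, Cdkn1c, Snrpn (the row with Snrpn's identifier), Asb4 and Peg3. Gli1 WT and Gli1 KO do not overlap for Phlda2, Cdkn1c and Snrpn, and they overlap for Asb4 and Peg3.

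The imprinted cluster of chromosome 6 around Peg10 was low and uneven. Asb4, a maternally expressed ubiquitin ligase adaptor gene (plus strand, chr6:5383386-5433022), had 0.990, 0.277 and 0.596 CPM in WT and 0.323, 0.113 and 0.133 CPM in KO. KO 1 overlapped WT 2, and the difference was -1.71 ± 0.65 log2 (unadjusted edgeR p 0.0356, FDR 1.0). It ran from -1.20 to -2.32 when 1 library was left out, and the unadjusted p was 0.13 without WT 1, 0.0588 without WT 3, 0.11 without KO 2 and 0.105 without KO 3. Peg10, a retrotransposon-derived placental gene, had 1.19, 0.132 and 0.416 CPM in WT and 3.20, 1.17 and 0.990 CPM in KO. Its difference of 1.62 ± 0.85 log2 (unadjusted edgeR p 0.0995) was 2.69 without WT 1 (unadjusted edgeR p 0.02) and 0.90 without KO 1. The unadjusted p was 0.0923 to 0.34 when any library other than WT 1 was left out. Sgce, which shares a start region with Peg10 and encodes a sarcoglycan, had 6.68, 1.18 and 1.99 CPM in WT and 6.41, 4.19 and 5.66 CPM in KO. Its difference was 0.72 ± 0.63 log2 (unadjusted edgeR p 0.291). Without WT 1, its highest tumour, the difference was 1.78 (unadjusted edgeR p 0.00414). Both genes were lowest in WT 2, and their reads were few there (10 for Peg10). Ppp1r9a, which encodes the actin-binding protein neurabin, ranged from 1.21 CPM in KO 3 to 17.2 CPM in KO 1. Its difference was 0.84 ± 0.85 log2 (unadjusted edgeR p 0.359). Without KO 3, its lowest tumour, the difference was 1.35 (unadjusted edgeR p 0.0468). The library left out was the highest WT tumour for Peg10 and Sgce and the lowest KO tumour for Ppp1r9a. Leaving it out widens the difference by design, so the smaller p-values are no support for a genotype effect.

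Mest and Copg2 lie end to end on chromosome 6 and overlap on opposite strands. Mest, a paternally expressed mesodermal gene, had 3.52, 3.46 and 5.19 CPM in WT and 9.51, 3.78 and 7.47 CPM in KO. Its difference of 0.77 ± 0.38 log2 had an unadjusted edgeR p of 0.0841. That p was 0.0131 without KO 2, and 0.0549 to 0.275 when any other library was left out. KO 2 is the lowest KO tumour, so leaving it out widens the difference by design and is no support for a genotype effect. Copg2, a coat protein gene of Golgi vesicles, was the steadiest member, with a highest-to-lowest ratio of 1.35 (22.7 to 30.7 CPM) and a difference of 0.02 ± 0.16 (FDR 1.0).

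Peg3 split the tumours in another way. It is a paternally expressed zinc finger gene of chromosome 7 (minus strand, chr7:6703892-6730421), and it had 45.4, 46.9 and 5.83 CPM in WT 1 to WT 3 and 26.6, 1.93 and 5.33 CPM in KO 1 to KO 3. WT 1, WT 2 and KO 1 were high and the other 3 low, so WT 3 and KO 1 were on different sides, unlike for H19. The highest level was 24.3 times the lowest. The difference was -1.54 ± 1.09 log2 (unadjusted edgeR p 0.204). It was -3.16 without KO 1 (unadjusted edgeR p 0.0227) and -3.66 without KO 1 and WT 3 (unadjusted p 0.00134). None of these passed edgeR's adjustment. KO 1 is the high KO tumour and WT 3 the low WT tumour. Leaving them out widens the difference by design, so the smaller p-values are no support for a genotype effect. Its neighbours were almost silent, with 17 reads of Usp29 in KO 1 and 0 elsewhere, and 1 read of Zim1 in each of WT 1 and KO 3.

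Grb10 and Ddc are adjacent on chromosome 11. Grb10, an adaptor that restrains insulin and IGF signalling, had 4.80, 3.55 and 11.2 CPM in WT and 14.3, 5.79 and 3.44 CPM in KO, again highest in KO 1 and WT 3. Ddc, which makes dopamine and serotonin, had 5.94, 21.5 and 4.77 CPM in WT and 3.999, 4.69 and 8.70 CPM in KO, and was the one member for which WT 2 stood apart. Its difference was -0.89 ± 0.63 log2 (FDR 1.0), and 0.12 without WT 2.

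The remaining members lie alone or in small domains. Gnas, the gene of the stimulatory G protein alpha subunit, had 389, 301 and 266 CPM in WT and 252, 301 and 317 CPM in KO, with a difference of -0.14 ± 0.23 (FDR 1.0). Plagl1, a zinc finger gene of an imprinted growth network, had 0.601, 0.991 and 4.52 CPM in WT and 1.16, 2.01 and 2.20 CPM in KO. Its difference was -0.19 ± 0.76 log2 (unadjusted edgeR p 0.811). Without WT 3, its highest tumour, the difference was 1.17 (unadjusted edgeR p 0.0407). Leaving out the highest WT tumour raises the difference by design, so the smaller p-value is no support for a genotype effect. Impact, a translation regulator gene, ranged from 12.2 to 18.9 CPM and Nnat, a proteolipid gene, from 0.927 to 1.98 CPM. Zdbf2 had 0 reads in every library.

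Some cell type markers also had an unadjusted edgeR p under 0.05 between the genotypes, as 3.62% of all genes tested did. None passed adjustment. Neutrophil markers were lower in KO at an unadjusted edgeR p under 0.05 for 3 of 3, with sums of 6.65 to 25.0 CPM in WT and 2.01 to 5.14 CPM in KO. Endothelial markers were lower for 2 of 6, at 212 to 241 CPM in WT and 156 to 201 CPM in KO, and leukocyte markers for 2 of 7, at 99.1 to 261 and 124 to 153 CPM. Stellate cell or fibroblast markers were higher for 1 of 8. None of these markers was at 0 reads in a library, and their part in the Phlda2, Snrpn or Asb4 values was not tested.

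Genes that act beside the members were followed as lists. Among 21 factors that set or keep imprints, 19 were tested and 0 passed FDR 0.05. At an unadjusted edgeR p under 0.05, 1 was higher (Uhrf1), against 3.62% of all genes. The median log2 fold change of the factors was 0.06 beside -0.01 for all genes. Uhrf1 had 2.02, 0.476 and 1.52 CPM in WT 1 to WT 3 and 3.315, 1.90 and 23.7 CPM in KO 1 to KO 3. KO 3 was thus far above the other tumours, and the genotypes overlapped, with KO 2 below WT 1. Zfp57, which binds methylated imprint control elements, had 2.35, 1.10 and 13.3 CPM in WT 1 to WT 3 and 10.8, 1.65 and 1.36 CPM in KO 1 to KO 3. It was high in the same 2 tumours as H19 and Meg3, at 6.64 and 5.42 times its median, and was the only one of the 18 factors at 1 CPM for which WT 3 or KO 1 stood apart. Its genotype difference was -0.27 ± 1.13 log2 (FDR 1.0). Of 7 genes for IGF2's signalling receptors, its mRNA-binding proteins and receptor adaptors, 6 were tested and 0 had an unadjusted p under 0.05, with 2 positive, 4 negative and a median of -0.29.

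A further 36 imprinted genes outside the list served as a comparison, of which 35 were found and 24 were tested. Again 0 passed FDR 0.05, and the median log2 fold change was -0.05. At an unadjusted edgeR p under 0.05, 1 was higher (Sfmbt2) and 2 were lower (Snurf, Qpct), against 3.62% of all genes. Sfmbt2 rested on few reads, with 5, 5 and 4 in WT 1 to WT 3 and 13, 16 and 13 in KO 1 to KO 3. Snurf shares its transcript with Snrpn. For 0 of the 21 rows at 1 CPM did WT 3 or KO 1 stand apart. Their most abundant gene in reads, the amino acid transporter gene Slc38a4, was lowest in those 2 tumours, with 1331, 1092 and 649 CPM in WT 1 to WT 3 and 569, 1145 and 1077 CPM in KO 1 to KO 3.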

How the data were processed

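RNA from 3 Gli1 WT and 3 Gli1 KO liver tumours was assigned to groups from the sample titles. The authors deposited 1 table with raw read counts per gene, RPKM and a gene length for each library. Deposited RPKM values were used only to compare genes within a library. The submitters' processing notes name bcl2fastq, TopHat2 2.0.6 and HTSeq and the human builds hg19 and GRCh37, but the identifiers are mouse: 42462 were shared with GENCODE M21, 84.2% with the same start, so coordinates are read as GRCm38. The strand setting and annotation release are not given in the sources used here. Totals were 75205624 to 132979502 counts per library, and no 2 libraries were identical.

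Deposited counts were tested with edgeR 4.0.16 (R 4.3.3): filterByExpr, TMM, robust quasi-likelihood test, two-sided, Benjamini-Hochberg over the 18359 genes kept. Standard errors are the log2 fold change divided by the square root of the F statistic. Alternatives were scaling by RLE or by upper quartiles, DESeq2 1.42.0, voom in limma 3.58.1, no filter, a CPM of 1 in 3 libraries, a replicate block, a term for whether the number in each sample's description was under 2000 or above 3900, removal of the 10 most counted genes and leaving out each library. Leaving out WT 3 and KO 1 together, and counting only genes at 1 CPM in another library, were added after seeing the data. The scripts were tested on simulated data.

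The members and lists were chosen with earlier results of these data known. Every member is accounted for. Fold change, SE and FDR are given for members at an unadjusted p under 0.05, with a library apart (4 times the median) or among the 5 highest by RPKM. Other fold changes were added after their values were seen. RefSeq windows were not found for H19, Rtl1, Cdkn1c, Sgce, Peg10 and Impact. Counting limits cover counting error only.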

Additional observations from a re-analysis of the deposited data

How the results depend on the processing

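Leaving out each library in turn, the count of members past FDR 0.05 stayed at 0 in edgeR, the count at an unadjusted p under 0.05 ran from 2 to 5, the count without overlap from 6 to 9 and the median log2 fold change from -0.15 to 0.24. Without both WT 3 and KO 1, 0 members passed, 14 rows did not overlap and the median was -0.19. With fewer libraries, genotypes overlap less often for any gene. The share over all genes was not counted under these drops, so the counts without overlap say nothing about the members. DESeq2 called 1 member and 63 genes where edgeR called 0 of each, and the cause was not tested. Requiring a CPM of 1 in 3 libraries left 2 rows at an unadjusted p under 0.05, since Phlda2 and Asb4 fell below that filter. Of the values of single members under the other settings, 448 stayed within 1 SE or on the same side of the threshold, 39 moved further and 1 became a call (Phlda2 in DESeq2). The sign of the fold change differed for 10 rows without KO 1, 7 without WT 3, 11 without both, 4 in voom, 5 with the number-range covariate and 0 with other scaling factors. Same-numbered WT and KO libraries deviated from their group means with correlations of -0.285, 0.18 and -0.343 over 18359 genes. Of the 6 libraries, 1 correlated best with its own number. Deviations from a mean of 3 libraries depend on each other, so this check cannot exclude that the numbers pair samples. With the replicate block, 0 members passed, 5 rows had an unadjusted p under 0.05, the median was -0.08, and H19, Meg3 and Rian were at -0.77, -2.80 and -2.92. Over rows at 1 CPM in a library other than WT 3 and KO 1, WT 3 stood apart for 3 members in place of 5 and both libraries for 3 in place of 5, since Rtl1 and Mirg were left out. Phlda2 rested on 10 to 87 reads per library and 12 members stayed under 1 CPM, so counting error weighs more on them.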
